A study of Homo sapiens with 3 samples.

Results

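The 67 genes described here encode factors of translation initiation, elongation and release, together with their close paralogs and some of their modifying enzymes. They are the protein-coding genes of GENCODE whose symbols begin with EIF1 to EIF6, EEF1 or EEF2, plus ETF1 and GSPT1, without the EIF2AK kinases, and they are 67 of 61193 genes in the deposited tables, 19926 of them protein-coding. The rule is stated in gene names only, and it was set with earlier results of these data known. Expression was measured in HEK293T cells, an established line from human embryonic kidney that expresses SV40 large T antigen. There were 3 independent replicates of 1 untreated condition, collected 24 h after seeding, with 3000000 cells per sample taken for RNA extraction. HEK293T is a single immortalised line, so the 3 replicates are cultures of the same cells and every value below describes that line. QuantSeq 3′ mRNA-seq libraries are primed on the poly(A) tail, so reads come from the last bases of an mRNA. With 1 condition there was no contrast to test, and all values are descriptions with their spread over replicates. EIF1AY lies on the Y chromosome and its level is not given, so values of single genes cover the 66 other members.

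Translation begins when the initiation factor eIF2 brings the initiator tRNA to the small ribosomal subunit, which eIF1, eIF1A and eIF3 hold ready, while the eIF4F complex binds the cap of the mRNA and unwinds it. After start codon recognition, eIF5 and eIF5B let the large subunit join. In elongation eEF1A delivers aminoacyl-tRNAs, the eEF1B complex reloads it with GTP, eEF2 moves the ribosome along and eIF5A helps at difficult peptide bonds, and eRF1 (ETF1) with eRF3 (GSPT1) ends the chain at a stop codon. Several of these proteins, eEF1A and eEF2 above all, are among the most abundant in growing cells.

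The libraries held 6262175 to 8521624 counts, and a gene at 0 could still hold up to 3 counts, or 0.352 to 0.479 counts per 1000000 (CPM). This limit is for counting error alone, since reads are not counted as single molecules here. Mitochondrial genes took 5.70 to 25.8% of the counts, most in replicate 3. Of 7 markers of this line, LIN28B was the highest with 875 to 1136 counts, PAX2 had 42 to 59 and KRT8 had 8 to 27, while VIM had 0 to 6 and KRT18, NEFL and NEFM were at 0 in every replicate. PTPRC, ALB and HBB, which mark leukocytes, hepatocytes and erythroid cells, were at 0, PECAM1 had 0 to 2 counts, and COL1A1, a fibroblast collagen, had 632 to 1129. In VIM, NEFM, PAX2 and HBB 0% of the last 300 exonic bases lay in a single listed transcript, in KRT18 2% and in ALB 24%. Genes with such 3′ ends had low median counts in these libraries (described below), so low values there are not read as absence. NEFL and PTPRC, also at 0, had 100% and 64.3%.

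The translation factor genes were spread over the whole range of the libraries, from genes without a read to EIF2S2, at rank 22 of the 19926 protein-coding genes by mean TPM. Their counts made up 1.59% ± 0.286 (SD, n = 3) of each library, and 4 genes, EIF2S2, EIF1AX, EIF2S3 and EIF3I, held 67.7% ± 0.263 of them. EIF2S2 alone took 28.3% ± 0.632. Conversely, EEF1A1, which encodes the elongation factor that delivers aminoacyl-tRNAs, took 0.00414% ± 0.00291. TPM values, which relate the counts to transcript length and sum to 1000000 in each library, were added up per gene. Their mean was 1 or more in 44 of the 67 genes (65.7%), compared with 38.2% of all protein-coding genes. The upper quartile of all genes with a mean TPM of 1 or more (24.1 TPM), called high expression here, was reached by 26 genes (38.8%), compared with 12.5% of all protein-coding genes. No read was counted in any replicate for 6 of the 66 members outside the Y chromosome (9.09%), compared with 36.5% of all protein-coding genes. These were EEF1G, EIF3L, EIF3CL, EIF6, EIF4EBP3 and EEF1AKMT3. The median mean TPM was 4.92 for the members and 0.195 for all protein-coding genes. By mean count, 19 members had fewer than 10 counts but not 0, 9 had 10 to under 100, 18 had 100 to under 1000 and 14 had at least 1000.

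**Figure D1:**
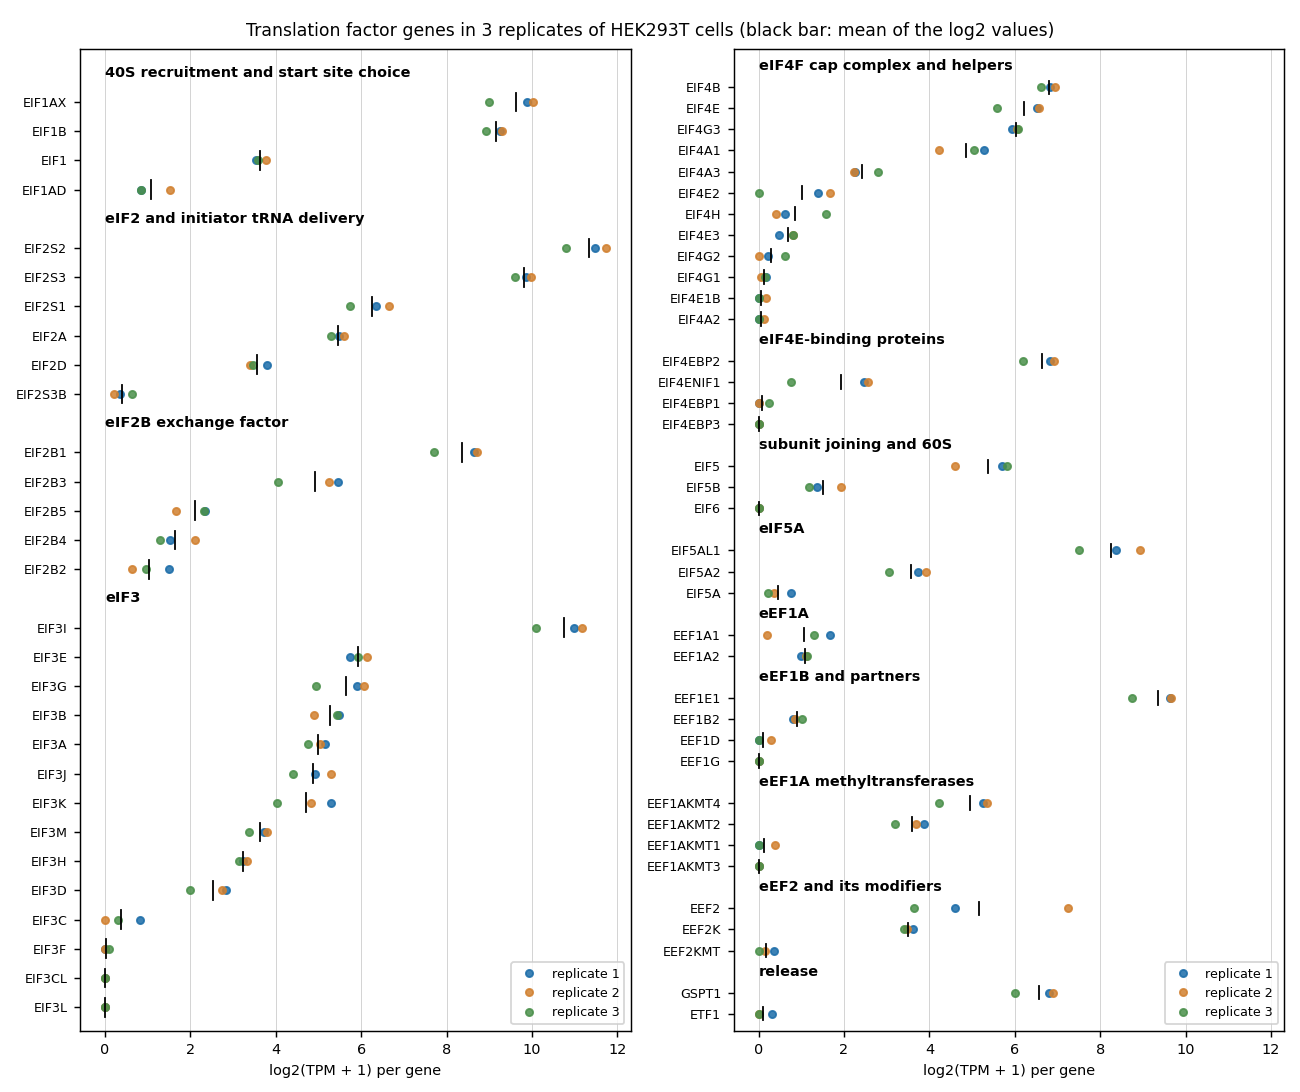
log2(TPM + 1) of 66 translation factor genes in each of 3 replicates (coloured points), grouped by role and ordered by mean TPM; black bars are means of the log2 values. Within several groups 1 or 2 genes, such as EIF1AX (833 TPM), EIF2S2 (2665 TPM), EIF3I (1811 TPM) and EEF1E1 (677 TPM), stand far to the right. Partners of EIF3I (EIF3F, EIF3L) and EEF1E1 (EEF1G) lie at or near 0. EIF2S3 (905 TPM), a partner of EIF2S2, and EIF1B (572 TPM), in the group of EIF1AX, also lie far to the right.

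Among the factors that prepare the small subunit, the 2 highest genes were EIF1AX and EIF1B. EIF1AX, the X-linked gene of eIF1A, which helps scanning and start codon choice, had 19027, 17682 and 14884 counts in replicates 1, 2 and 3, or 833 ± 288 TPM (SD, n = 3). EIF1B, a paralog of EIF1, had 2729, 2367 and 3171 counts, or 572 ± 78.7 TPM. EIF1 itself, the gatekeeper of start codon fidelity, had 113, 114 and 167 counts and 11.4 ± 1.12 TPM, below EIF1B in every replicate. The log2 ratio of EIF1 to EIF1B, on TPM + 1, was −5.52 ± 0.19. EIF1AD, a protein with an eIF1A-like domain, had 2, 4 and 3 counts and 1.15 ± 0.616 TPM, all on a transcript with a retained intron.

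The 3 subunits of eIF2, which form 1 complex in equal parts, differed in TPM by 5.10 on the log2 scale from the lowest to the highest. EIF2S2, the β subunit, at chr20:34088309-34112243 on GRCh38, was the highest of all members with 32821, 33182 and 30324 counts and 2829.8, 3386 and 1779 TPM. EIF2S3, the γ subunit that binds GTP and the initiator tRNA, had 14501, 13448 and 17877 counts and 905 ± 121 TPM. EIF2S1, the α subunit whose phosphorylation slows initiation, had 1526, 1583 and 1443 counts and 77.7 ± 23.6 TPM. The order β over γ over α held in every replicate, and the log2 ratio of EIF2S2 to EIF2S1 was 5.08 ± 0.03. EIF2S3B, a retrotransposed copy of EIF2S3 whose coding sequence is 98.2% identical to it, had 2, 1 and 6 counts. EIF2A and EIF2D, which can deliver initiator or other tRNAs without eIF2, had 43.3 ± 4.86 and 10.8 ± 1.79 TPM, with most of their counts on transcripts with retained introns (57.6% and 99.8%). Per length of the canonical transcript they had 15.9 and 28.3 TPM, in the opposite order.

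For eIF2B, the exchange factor that reloads eIF2 with GTP, 1 subunit stood apart. EIF2B1, the regulatory α subunit, had 4322, 3854 and 3338 counts and 342 ± 116 TPM. EIF2B3 had 31.9 ± 14.4 TPM, and EIF2B5, the catalytic ε subunit, EIF2B4 and EIF2B2 had 3.42 ± 1.11, 2.2 ± 0.978 and 1.10 ± 0.655 TPM. EIF2B2 had 22, 9 and 20 counts, the 3 lowest subunits had 9 to 23, and among these 3 the TPM ranges of neighbours overlapped. Per length of the canonical transcript EIF2B5, EIF2B4 and EIF2B2 had 1.04, 2.35 and 0.809 TPM, so EIF2B4 was then above EIF2B5.

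The scaffold eIF3 joins the small subunit to the mRNA, and its 13 subunit genes (EIF3A to EIF3M) showed the widest range of any complex. EIF3I was the highest, with 13460, 12849 and 10686 counts and 1811 ± 630 TPM. EIF3E, EIF3G, EIF3B, EIF3A, EIF3J and EIF3K lay between 26.9 and 60.7 TPM, and the replicate ranges of neighbours in this order overlapped. Per length of the canonical transcript EIF3E and EIF3B had 22.8 and 16.6 TPM. EIF3M and EIF3H followed with 11.5 ± 1.91 and 8.41 ± 0.668 TPM, and EIF3D, which can bind the cap itself, with 4.92 ± 1.69 TPM. EIF3C, a core subunit, had 3, 0 and 1 counts, EIF3F had 1 count in replicate 3 only, and EIF3L had none. Of the 31-base stretches of EIF3CL, which had no count, 98.4% also occur in transcripts of EIF3C. A read that matches both cannot be placed in either with certainty, so the counts of EIF3C and EIF3CL are uncertain. From EIF3I to EIF3F the mean TPM differed by 16.2 on the log2 scale, with a 95% exact Poisson interval of 13.7 to 21.5 for the 1 count of EIF3F. The 4 subunits whose 3′ ends lie mostly in a single listed transcript (EIF3A, EIF3J, EIF3M and EIF3H) spanned only 8.41 to 30.7 TPM, or 1.87 on the log2 scale. The extremes in both directions were among the 9 other subunits.

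**Figure D2:**
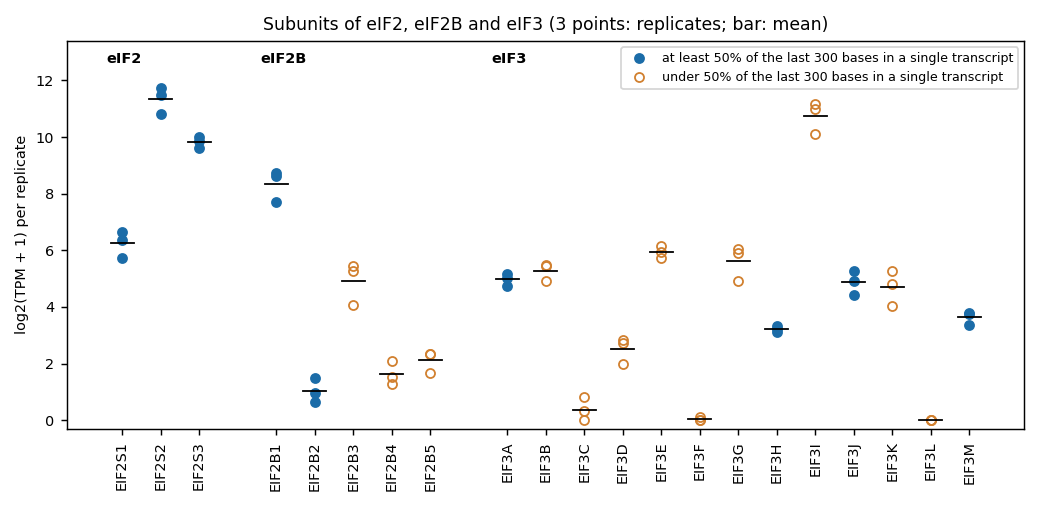
log2(TPM + 1) in each of 3 replicates (points; bars are means) for the subunits of eIF2, eIF2B and eIF3; filled blue points are genes with at least 50% of the last 300 exonic bases in a single listed transcript, open orange points the others. The 4 blue eIF3 subunits lie between 8.41 and 30.7 mean TPM, while the orange ones run from 0 (EIF3L) to 1811 (EIF3I).

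Genes of the cap-binding complex eIF4F were uneven in the same way. EIF4E, the cap-binding protein, had 4409, 4092 and 3398 counts and 77.0 ± 26.3 TPM. EIF4B, which stimulates the helicase, had 2100, 1937 and 2694 counts and 111 ± 12.3 TPM, above EIF4E in every replicate. This order depends on the length: the leading transcript of EIF4E was 11523 bases long in the deposited tables and 2427 in GENCODE v44, and per length of the canonical transcript EIF4E had 359 ± 127 and EIF4B 122 ± 13.8 TPM. EIF4A1, the main RNA helicase of the complex, had 242, 98 and 307 counts and 29.1 ± 10.2 TPM, and 99.5% of these reads were assigned to a transcript with a retained intron. Its paralog EIF4A2 had 0, 2 and 0 counts. EIF4G1, the major scaffold of the complex, had 1, 1 and 2 counts, whereas EIF4G3 had 363, 330 and 589 and 63.8 ± 3.02 TPM, 95.2% of its counts on a transcript without a defined coding sequence. Per length of the canonical transcript EIF4G3 had 13.6 TPM. EIF4G2, a scaffold that lacks the cap-binding partner site, had 5, 0 and 17 counts. EIF4A3, a member of the exon junction complex, had 28 to 33 counts and 4.47 ± 1.28 TPM. EIF4E2, a cap-binding repressor, had 8, 9 and 0 counts, EIF4H 2, 1 and 11, EIF4E3 18 to 49, and the germline gene EIF4E1B a single count in replicate 2.

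Among the eIF4E-binding proteins, which hold EIF4E away from the scaffold when mTOR is inactive, EIF4EBP2 had 3824, 3426 and 3620 counts and 101 ± 25.3 TPM. EIF4EBP1, the best known of them, had 1 count in replicate 3 and none elsewhere, and EIF4EBP3 had none. EIF4ENIF1, the transporter of eIF4E, had 4 to 8 counts. For subunit joining, EIF5, which activates the GTPase of eIF2, had 358, 218 and 350 counts and 43.1 ± 17.4 TPM, and EIF5B, the joining GTPase, 1.90 ± 0.828 TPM. Per length of the canonical transcript EIF5 had 11.3 TPM. EIF6, which keeps the ribosomal subunits apart, had no count in any replicate.

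In elongation, the genes of eEF1A and of its exchange complex were near the lower end. EEF1A1 had 6, 1 and 7 counts and 1.26 ± 1.04 TPM, and its brain and muscle paralog EEF1A2 had 8, 10 and 14 counts and 1.11 ± 0.10 TPM, so on the TPM scale neither was higher in every replicate (log2 ratio −0.02 ± 0.81, 2 of 3 replicates with EEF1A1 higher). In CPM, not divided by length, EEF1A2 was higher in all 3 replicates (−0.64 ± 0.49), at 1 to 14 counts per gene. The leading transcript of EEF1A1 was 701 bases long in the deposited tables and 2079 in GENCODE v44. Per length of the canonical transcript EEF1A1 had 0.256 ± 0.161 and EEF1A2 1.25 ± 0.246 TPM, with EEF1A2 higher in every replicate. For the exchange complex of eEF1A, EEF1B2 had 2, 2 and 4 counts, EEF1D a single count in replicate 2, and EEF1G none. EEF1E1, a partner that belongs to the multi-tRNA synthetase complex, had 3708, 3140 and 2946 counts and 677 ± 215 TPM, the highest of the elongation genes. Of the 4 methyltransferases of eEF1A found by the rule, EEF1AKMT4 had 307, 279 and 214 counts and 31.5 ± 12.2 TPM (60.5 and 5.27 TPM for EEF1AKMT4 and EEF1AKMT2 per length of the canonical transcript), and EEF1AKMT2 11.3 ± 2.85 TPM, while EEF1AKMT1 had 1 count and EEF1AKMT3 none. EEF2K, the kinase that inhibits eEF2, had 304, 247 and 436 counts and 10.3 ± 0.895 TPM, and EEF2KMT, a methyltransferase of eEF2, 3, 1 and 0 counts. For release, GSPT1 (eRF3a) had 3581, 3249 and 2988 counts and 97.4 ± 29.99 TPM, compared with 1 count in 1 replicate for ETF1 (eRF1), its partner.

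EEF2, the translocase, differed most between replicates. It had 315, 1824 and 208 counts, or 23.2, 152 and 11.4 TPM, so replicate 2 lay far above the others. Per 1000000 counts on nuclear genes it had 49.6, 309 and 32.9, and this ratio between the highest and lowest replicate (3.21 on the log2 scale, with 0.5 added to each value) was the third largest among 5040 protein-coding genes with a mean of at least 50 counts. Without replicate 2 its mean was 17.3 TPM, under the limit of high expression. The next members in this order were EIF4A1 (1.52, lowest in replicate 2) and EIF3B (1.15, lowest in replicate 2). Of the 33 members with at least 50 counts, 30 (90.9%) stayed within 1 on the log2 scale, compared with 92.5% of all 5040 genes, and the medians were 0.377 and 0.364. In TPM, 26 of the 33 were lowest in replicate 3, where mitochondrial reads took the largest share. In counts per 1000000 nuclear counts, 18 of 33 were lowest there. The shares among all 5040 genes were not counted, so neither number can be called a trait of the members. The part of the mitochondrial reads in the TPM differences was not tested further.

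**Figure D3:**
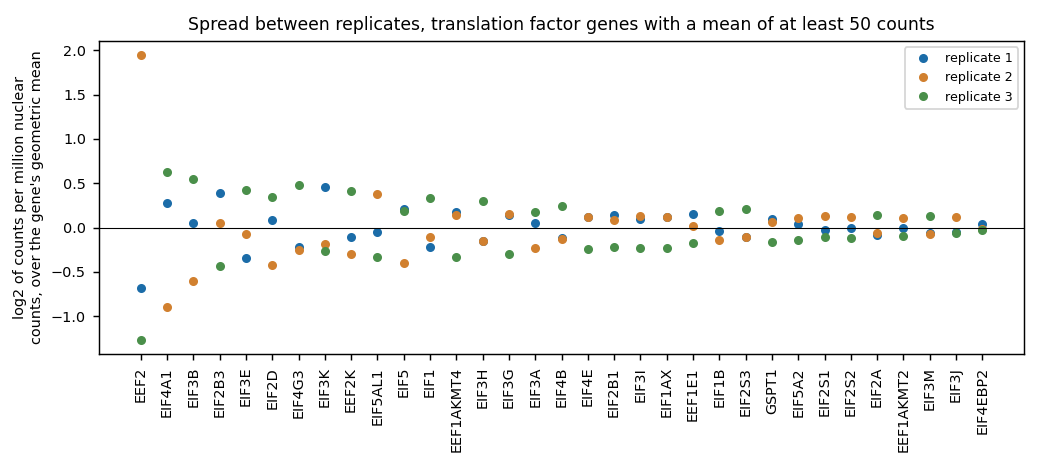
Counts per 1000000 nuclear counts in each replicate, divided by the geometric mean of the gene's 3 values (log2, 0.5 added), for the 33 translation factor genes with a mean of at least 50 counts, ordered by their spread. EEF2 is far above the rest in replicate 2 (309 against 49.6 and 32.9), and 30 of the 33 genes span less than 1.

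The counts moved with the structure of the 3′ ends. A read from the last bases of a gene can be tied to 1 transcript without ambiguity only where a single listed transcript covers those bases, so the last 300 exonic bases of each gene's reference transcript (the GENCODE canonical one where listed) were compared with all listed transcripts on the same strand. In 27 of the 66 genes no base of this stretch lay in a single transcript, and their median was 3.00 counts and 0.859 TPM. Another 10 genes had a share above 0 and under 50%, with medians of 11.7 counts and 1.73 TPM. For the 29 genes with at least 50% the medians were 329 counts and 31.5 TPM, and 26 of them (89.7%) had a mean TPM of at least 1, compared with 18 of the 37 genes under 50% (48.6%). None of the 29 had 0 counts in all replicates, and all 6 genes at 0 were among the 37. Of the 14 genes with at least 1000 counts, 13 had at least 50%. The exception was EIF3I, with 0.667%, whose reads all fell on EIF3I-202, a transcript that was 1458 bases long in the deposited tables and 1417 in GENCODE v44. Over the 66 genes the Spearman correlation of this share with the mean count was 0.620, and that of the number of listed transcripts with the mean count was −0.176. These are descriptions over genes of the same libraries. The strand setting of the counting is not given. With listed transcripts of both strands compared, EIF2B1, EEF2K, EIF2B2 and EIF5B, which are among the 29, had 0% instead of 100%.

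The same order was seen over all protein-coding genes, with median counts of 0.333, 0.667 and 20.7 in the 3 classes, and a share of at least 50% was about as frequent among the members (43.9%) as among all protein-coding genes (42.7%). Of all protein-coding genes with at least 1000 counts, 1218 had at least 50% and 135 had less. A mean TPM of at least 1 was reached by 53.1% of all protein-coding genes with at least 50%, and by 27.2% of those under 50%. No count was found for 2243 of 8502 and for 5028 of 11424 of these genes. EEF1A1 (12 listed transcripts, up to 4 over its last 300 bases), EEF1D (54 transcripts, up to 26) and EIF4G1 (38 transcripts, up to 11) had 0% of these bases in a single transcript. EIF2S2, EIF5AL1, EIF4EBP2 and EEF1AKMT4 were each listed with 1 transcript and had 100%. EIF4EBP3, also listed with 1 transcript, had 2.33%, with up to 4 listed transcripts over its last 300 bases, and 0 counts. In EEF2, 18.3% of the last 300 bases lay in a single transcript, and the nearest such base was 245 bases from the 3′ end. For 19 members most reads fell on a transcript without coding sequence, 18 of these with a retained intron. Their median was 7.33 counts, compared with 264 for the 41 members whose leading transcript was protein-coding, and 1 of the 19 (EIF2A) had at least 50% of its 3′ end in a single transcript. The share of all protein-coding genes led by a transcript without coding sequence was not counted, so the 19 cannot be called particular to the members. Whether reads over several transcripts were left out in counting is not stated for these files, and the part of the 3′ ends in the levels was not tested.

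**Figure D4:**
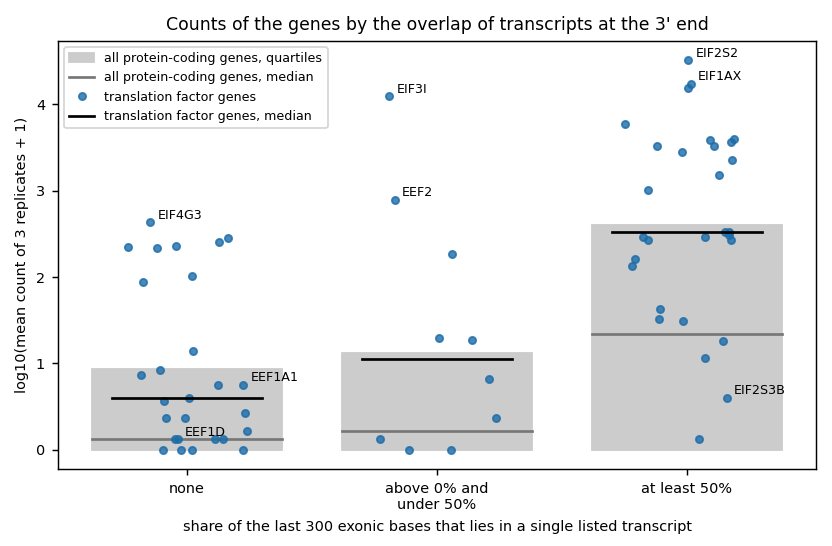
log10(mean count + 1) of 66 translation factor genes (blue points; black lines are medians) by the share of the last 300 exonic bases that lies in a single listed transcript, with the quartiles (grey boxes) and medians (grey lines) of all protein-coding genes. The medians of the translation factor genes are 3.00, 11.7 and 329 counts from left to right, and EIF3I is the high exception in the middle class.

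Several parents with few or no reads had processed copies, made by reverse transcription of the mRNA, that were well counted. GENCODE lists 148 processed pseudogenes for 29 of the members, and 104 of them had a count, some only 1 count in 1 replicate (such as EEF1A1P15). In 8 parents the pseudogenes together exceeded the parent in every replicate. The same shares over all genes with processed pseudogenes were not counted, so neither number can be called a trait of the members. EEF1DP1 on chromosome 19 had 2149, 2045 and 1863 counts (479 TPM), whereas EEF1D had a single count in 1 replicate. EEF1B2P3 had 324, 314 and 386 counts (104 TPM) and its parent EEF1B2 2, 2 and 4 (0.859 TPM). EEF1GP5 had 179, 190 and 219 counts and EIF3FP3 168, 118 and 239, with 0 to 1 counts in EEF1G and EIF3F, and EIF3LP2 had 52 to 97 with none in EIF3L. EEF1A1P5, which is 99.7% identical to the coding sequence of EEF1A1, had 65, 86 and 133 counts. In contrast, EIF2S2P4 (1593, 2014 and 1580 counts) and EIF1AXP1 (1014, 908 and 766 counts) stayed below their parents in every replicate, in counts and in TPM. With pseudogenes added to their parents, the share of EEF1A1 in the counts on the members was 0.377%, and its log2 ratio to EEF1A2 was 5.12. The 14 pseudogenes with a mean of at least 50 counts had, as a median, 37.3% of their 31-base words in common with transcripts of the parent, compared with 2.51% for the 44 without a count. A read that matches both cannot be placed in either with certainty, so the counts of these pairs are uncertain.

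The intronless gene EIF5AL1, at chr10:79512533-79516440, was the copy with the most counts. It had 5696, 7111 and 4648 counts and 330.5 ± 151 TPM, whereas EIF5A, the gene it was copied from, had 3, 1 and 1 counts and EIF5A2, the other paralog, 307, 300 and 269 (11.2 ± 3.54 TPM). Their coding sequences differ at 5 of 465 aligned bases (98.9% identity), and EIF5A and EIF5A2 are 74.7% identical over the part that aligned. The next lines show, because it holds 3 of these differences, the 90-base stretch from base 44 of the EIF5A coding sequence, and the matching bases 161 to 250 of the EIF5AL1 transcript, from GENCODE v44, with the differing bases in capitals.
EIF5A: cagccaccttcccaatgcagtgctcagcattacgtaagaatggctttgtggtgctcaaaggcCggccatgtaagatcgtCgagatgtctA
EIF5AL1: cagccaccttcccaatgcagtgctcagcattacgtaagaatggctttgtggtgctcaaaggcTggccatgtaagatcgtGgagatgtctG
Of the 3908 bases of EIF5AL1, those that share 31-base words with EIF5A end at base 1221, and 16.9% of its words are shared. The deposited tables give no position of the reads within a transcript. EEF1B2P3 shows the same closeness to its parent, with 7 differences in 678 bases, and its first 90 bases are set here below those of the EEF1B2 coding sequence.
EEF1B2: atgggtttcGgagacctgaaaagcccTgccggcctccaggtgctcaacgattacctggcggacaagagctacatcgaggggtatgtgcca
EEF1B2P3: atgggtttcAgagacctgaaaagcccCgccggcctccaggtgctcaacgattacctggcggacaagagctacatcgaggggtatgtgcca
Only 2 bases differ in this stretch. EIF1 and EIF1B, by comparison, are 82.2% identical in their coding sequences and share no 31-base word, as is also true of EIF4A1 and EIF4A2 (77.5%) and EEF1A1 and EEF1A2 (78.5%).

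**Figure D5:**
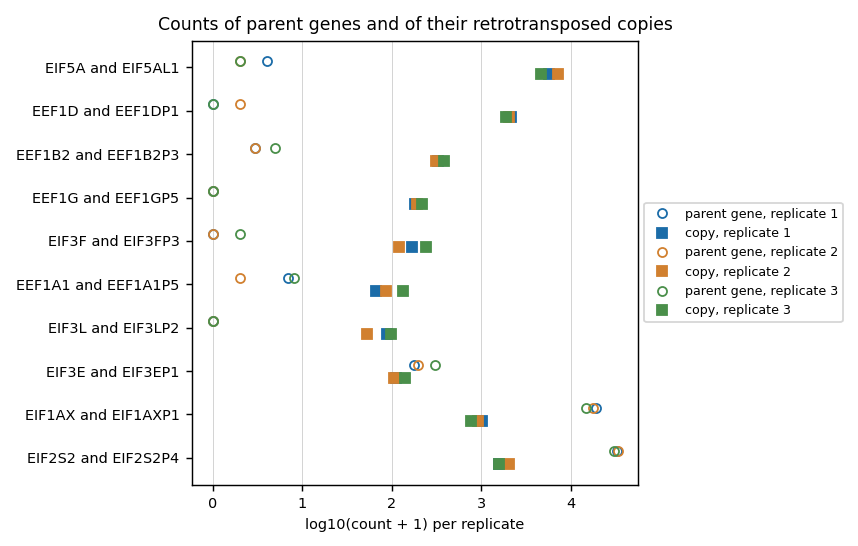
log10(count + 1) in each of 3 replicates for 10 parent genes (open circles) and a retrotransposed copy of each (filled squares). In the upper 7 pairs, from EIF5A and EIF5AL1 to EIF3L and EIF3LP2, every copy lies above its parent in every replicate, while EIF3E, EIF1AX and EIF2S2 lie above their copies.

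Paralog pairs were compared within each replicate as log2 ratios of TPM + 1, and in 6 of 9 pairs the direction was the same in every replicate. EIF4A1 exceeded EIF4A2 (4.80 ± 0.62, SD, n = 3) and EIF4E exceeded EIF4E2 (5.20 ± 0.35). The better known paralog was the lower one in the 4 others, which were EIF1 and EIF1B (given above), EIF4G1 and EIF4G3 (−5.89 ± 0.10), EIF5A and EIF5A2 (−3.12 ± 0.39) and EIF4EBP1 and EIF4EBP2 (−6.57 ± 0.53). For EEF1A1 and EEF1A2, EIF4G2 and EIF4G1 (0.15 ± 0.28) and EIF3C and EIF3CL (0.38 ± 0.41), the spread between replicates was as large as the ratio or larger. In 4 of these 6 pairs (EIF1B, EIF4E, EIF4EBP2 and EIF5A2 against their paralogs) the higher gene had at least 50% of its 3′ end in a single transcript, and the lower had 0% to 1.33% in all of these but EIF1, which had 100%.

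Promoter sequences from RefSeq (GRCh38.p14, 250 bases before and 50 after each annotated start) were listed for 54 members with 73 promoters, and not for EEF1A2, EEF1AKMT1, EEF1AKMT3, EEF1D, EEF2KMT, EIF2S2, EIF3A, EIF3CL, EIF3E, EIF3G, EIF3H, EIF3L and EIF4EBP1. RefSeq promoters were listed for 27305 genes in all, more than the 19926 protein-coding genes used above, so the comparison set is wider. The median share of G and C bases was 64.2% in the members and 58.3% in all genes listed. Many mRNAs of the translation machinery begin with a terminal oligopyrimidine (TOP) tract, a C followed by further C or T bases, through which LARP1 and mTOR control their translation. A C followed by at least 4 bases that are each C or T, beginning within 5 bases of an annotated start on the strand of the gene, was found in 24 of the 54 members (44.4%) and in 25.2% of 27305 genes in the table. Exactly at the start it was found in 13 members (24.1%) and 5.14% of all genes. The lines below show these tracts in capitals for 8 genes from across the count range, with 10 bases before and 20 from the annotated start onwards.
EEF1A1: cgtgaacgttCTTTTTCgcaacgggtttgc
EEF1B2: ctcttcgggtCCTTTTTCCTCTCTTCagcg
EEF2: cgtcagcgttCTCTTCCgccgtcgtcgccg
EIF4A2: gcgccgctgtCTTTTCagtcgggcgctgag
EIF4B: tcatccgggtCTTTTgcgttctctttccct
EIF3F: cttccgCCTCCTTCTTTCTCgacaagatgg
EIF2S3: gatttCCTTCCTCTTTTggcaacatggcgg
EIF2S3B: gactttCTTCCTCTTTTggcaacatggcgg
They lie at chr6:73521013-73521042 (minus strand), chr2:206159885-206159914 (plus), chr19:3985444-3985473 (minus), chr3:186783567-186783596 (plus), chr12:53006446-53006475 (plus), chr11:7987327-7987356 (plus), chrX:24054946-24054975 (plus) and chr12:10505880-10505909 (plus), in this order. In EEF1A1, EEF1B2, EEF2, EIF4A2 and EIF4B the run begins at the annotated first base. Genes with such a start were found at both ends of the range, from EIF2S3 and EIF4B to EIF3F and EEF1A1.

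The study from which these libraries come mapped i-motifs and G-quadruplexes, 4-stranded structures that C-rich and G-rich DNA can form, so the promoters were also searched for 4 runs of at least 3 C, or of at least 3 G, separated by 0 to 7 bases. Such a sequence was present in 13 of the 54 members (24.1%) and in 29.6% of 27305 genes. Runs of C on the strand of the gene were found in 11 members (20.4%, compared with 16.6% of all) and runs of G in 6 (11.1%, compared with 17.6%). The lines show examples with the runs in capitals, 5′ to 3′ on the strand of the gene.
EIF4G1: CCCggCCCgccgCCCCCtCCCCCC
EIF5A: CCCCtCCCCCCaggtCCC
EIF4EBP2: CCCtgCCCCtcgtCCCCgCCCCC
EEF1E1: CCCCgCCCtcagCCCCgCCCC
EIF3J: CCCCtCCCtccgCCCCCCtccgCCCCCCCC
EEF2: GGGttaacGGGcGGGGGG
EIF5A2: GGGctgagtGGGGGcGGGtaaGGG
These begin 161, 53, 127, 154, 211, 130 and 71 bases before the annotated start and lie at chr3:184315003-184315026 (plus), chr17:7308320-7308337 (plus), chr10:70404018-70404040 (plus), chr6:8102682-8102702 (minus), chr15:44536936-44536965 (plus), chr19:3985576-3985593 (minus) and chr3:170908685-170908708 (minus). The genes with such a sequence included well counted ones (EEF1E1, EIF4EBP2) and nearly uncounted ones (EIF4G1, EIF5A). A match says only that these letters are present, and no structure was measured in the RNA-seq libraries.

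Of 24 other genes of the same pathway, which take part in ribosome recycling, modification of eIF5A and eEF2, poly(A) binding or stress control of eIF2, 21 had a mean TPM of at least 1 and 9 were high. The 2 at 0 counts were DOHH, which completes hypusine on eIF5A, and DPH2, which starts diphthamide on eEF2. Both had 0% of the 3′ end in a single transcript. LARP1, the TOP-binding repressor, had 22196, 20373 and 21320 counts (676 TPM) although 0% of its reference 3′ end lay in a single transcript. DENR, a recycling factor, had 7484, 6857 and 6616 counts, and ABCE1, which splits ribosomes after release, 2996 to 3676. The kinases that phosphorylate EIF2S1 differed, with 163 TPM for EIF2AK1, 29.8 for EIF2AK2, 19.0 for EIF2AK4 and 5.17 for EIF2AK3, and GCN1, the activator of EIF2AK4, had 89.9 TPM. EIF2AK1 and EIF2AK2 had 100% of the 3′ end in a single transcript, and EIF2AK4 and EIF2AK3 had 0%. The part of the 3′ ends in this order was not tested. PABPC1, the main poly(A)-binding protein, had 6 to 12 counts and 2.44 TPM, with 0% of its 3′ end in a single transcript. The 12 pathway genes with at least 50% of the 3′ end in a single transcript had a median of 1136 counts, and the 12 others 10.3.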

How the data were processed

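HEK293T RNA was measured in 3 replicates of 1 condition; the labels name genomic DNA as the material but describe RNA extraction and QuantSeq libraries. Per the labels, reads were trimmed with Trimmomatic 0.38.0, aligned with HISAT2 2.2.1 to hg38 and counted with featureCounts. The annotation release, strand setting and handling of reads on several transcripts are not given in the sources used here. The authors deposited raw counts per transcript, the transcript length and TPM, and the deposited TPM was recomputed from counts and lengths within rounding.

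Transcript identifiers were matched without version to GENCODE v44, and 223558 of 247541 transcripts matched, in 61193 genes. The unmatched held at most 0.166% of a library's counts. Deposited lengths equalled GENCODE v44 for 94.0% of matched transcripts (91.1% in members). Counts and TPM were summed per gene. The mean and SD are over 3 replicates, with a pseudocount of 1 in log2 ratios. The members and gene lists were chosen with earlier results of these data known. All members were reported by role, with replicate values for the highest and lowest of each group and for the paralog pairs. The pair of EIF5AL1 and EIF5A, EIF2S2 ratios and the copies shown in the plot were chosen after their values were seen. Alternatives were each replicate left out, other scalings, thresholds and pseudocounts, pseudogenes added, and other motif rules. Code was tested on simulated data. Python 3.11.15, numpy 2.4.6, pandas 2.3.3, scipy 1.17.1, Biopython 1.88 and matplotlib 3.10.9 were used.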

Additional observations from a re-analysis of the deposited data

How the results depend on the processing

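No paired analysis was possible because all 3 replicates belong to 1 group. Of 128 values under alternatives, 94 moved by less than the spread between replicates (or, for counts of genes, by less than 1.5 times) and none of the paralog ratios with 1 direction in every replicate turned round. The number of members with a mean TPM of at least 1 (44) ran from 32, at a limit of 10 TPM, to 60, at any value above 0. The number with high expression fell from 26 to 17 in CPM, which is not divided by length, and was 20 to 33 under the other settings. The median of the members (4.92 TPM) was 4.80 to 5.88 with 1 replicate left out, 6.0 in CPM, 6.65 without mitochondrial genes, 2.52 with counts per gene divided by the length of the canonical transcript, 15.3 with pseudogenes added and 31.1 over members with at least 1 TPM. The eIF3 range (16.2) was 12.5 to 15.5 with 1 replicate left out, lowest without replicate 3, which holds the only count of EIF3F. It was 12.40 with pseudogenes added and 1.87 over the subunits with mostly single 3′ ends. The EEF1A1 share (0.00414%) became 0.377% with pseudogenes added. TOP-like starts were 24.1% exactly at the start and 68.5% within 20 bases, where all genes in the table had 5.14% and 56.0%. Sequences with 4 runs were 40.7% of members with loops of up to 12 bases and 100% with runs of at least 2, where all genes had 42.0% and 85.6%. Pairs with 1 direction in every replicate numbered 6 to 9, and 7 in CPM, where EEF1A1 and EEF1A2 joined them. Of the 33 members with at least 50 counts, 9 moved by over 1.5 times per length of the canonical transcript, and each is given where it is described. In 3 of 72 values of paralog ratios the sign changed, all in pairs without 1 direction.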

Other observations

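Genes known to respond to stress signalling through eIF2 and ATF4 differed between replicates, chosen here after their values were seen and without a test. CHAC1, a glutathione-degrading enzyme, had 638, 1126 and 3031 counts in replicates 1, 2 and 3, SLC7A11, a cystine transporter, 1612, 1524 and 5693, PSAT1, an enzyme of serine synthesis, 12417, 12382 and 32431, and NUPR1 130, 232 and 1045. All 4 were highest in replicate 3, the library with 25.8% mitochondrial counts, while the libraries held 5905072 to 6345891 counts on nuclear genes. TRIB3 had 640, 676 and 1099, also highest there, and the chaperone gene HSPA5 had 21428, 17334 and 19187, highest in replicate 1. Of 17 stress genes looked at, heat shock genes such as HSPA1B and DNAJB1 among them, 2 had no count. Relative to nuclear counts 10 were highest in replicate 3, 1 in replicate 2 and 4 in replicate 1. The share of all genes highest in replicate 3 was not counted, so this number does not set the stress genes apart. PPP1R15A, another target of eIF2 and ATF4 signalling, was lowest in replicate 3, with 26, 17 and 14 counts in replicates 1, 2 and 3. ATF4 itself had 0, 4 and 5 counts and DDIT3 none, with 0% of their 3′ ends in a single listed transcript.

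HSPA1B, a heat shock chaperone gene, had 3, 1146 and 0 counts. Its excess lies in replicate 2, the replicate in which EEF2 was also far above the others (1824 counts against 315 and 208). DNAJB1, another heat shock gene, had 4761, 4396 and 3293 counts.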
